A study of Bos taurus with 40 samples.

Results

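The extra-embryonic (EE) tissues of 10 SCNT Med conceptuses were compared with those of 10 IVP conceptuses, which are 20 of the 40 bovine arrays analysed here. Members were chosen by the reproduction mode in the labels, SCNT-7711 for SCNT Med and IVP for the controls, with 1 conceptus per array. SCNT Med conceptuses were cloned by somatic cell nuclear transfer from adult ear-skin fibroblasts of donor line 7711, which came from 1 Holstein heifer, so that the group stands for 1 donor genome. IVP conceptuses came from oocytes of the same batches, fertilised in vitro with sperm of a single Holstein bull and cultured to the blastocyst stage. In both groups, several blastocysts were transferred to each recipient cow, conceptuses were recovered at Day 18, and the embryonic disc was dissected away before the remaining tissue was frozen. All SCNT Med conceptuses were therefore female, whereas the IVP group held both sexes. The sex, the recipient and the elongation of each conceptus are not in the labels, so the mode of reproduction cannot be told apart from sex and parentage. As nothing in the labels ties a conceptus to its recipient, p-values measure the spread between these conceptuses, some of which may have shared a uterus.

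The EE tissues of a ruminant conceptus before implantation are mainly the trophoblast, the outer epithelium that faces the uterus, and the endoderm that lines it. During elongation the trophoblast grows into a long filament and secretes interferon tau, the signal by which ruminants maintain pregnancy. Fibronectin (FN1) is a matrix protein known from the endoderm of such conceptuses, and perilipin 2 (PLIN2) coats the lipid droplets of the trophoblast. The comparison asks whether these tissues differed in gene expression between clones of line 7711 and embryos made by fertilisation.

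Each array held 10184 cDNA probes, and a level is the log2 of the spot signal minus the mean of its array, so that 0 is the average probe of that array and a difference of 1 is a 2-fold difference in signal. With limma across all probes, 0 of the 10184 probes (0%) passed a Benjamini-Hochberg adjusted p under 0.10. The smallest adjusted p was 0.864. Before adjustment, 335 probes (3.29%) had a p under 0.05, fewer than the 509 that this threshold would give among probes without any difference. Of these, 158 (1.55%) had the higher mean in SCNT Med and 177 (1.74%) the lower. There was no probe for which the 10 SCNT Med and the 10 IVP arrays did not overlap (0%).

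The arrays set bounds on the differences that may have been missed. The median standard error of a difference was 0.21, and the median size of a difference was 0.13. For 9266 probes, 91.0% of the array, the 95% interval of the difference lay between -1 and 1, that is within a 2-fold difference in either direction. For 3451 probes (33.9%) it lay between -0.5 and 0.5. An interval can pass these bounds because it is wide or because the difference itself is large. For 125 probes the interval reached beyond -1.5 or 1.5. These intervals bound the spot signal. Background was not subtracted, so for spots near the level of the water control they do not bound the RNA. Only 10 probes had a mean difference larger than 1, with 7 lower and 3 higher in SCNT Med. Over all probes the differences were centred on 0, with a median of -0.00. The plot of difference against level shows the named probes among all others.

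**Figure D1:**
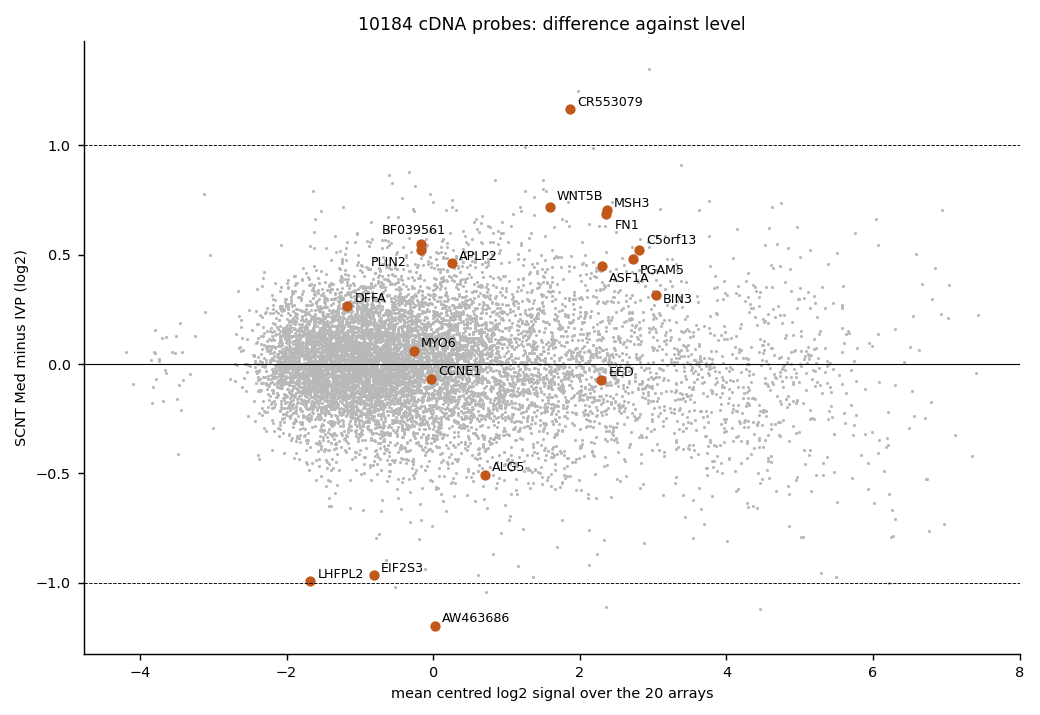
Each grey point is 1 of 10184 cDNA probes, with its mean centred log2 signal over the 20 arrays on the x axis and the difference SCNT Med minus IVP (log2) on the y axis; dashed lines mark a difference of 1 in either direction. The 19 named probes are in colour: AW463686, LHFPL2 and EIF2S3 lie near or below -1 and CR553079 lies at 1.17, while most probes lie within 0.5 of 0.

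Probes are known by the accession of the spotted cDNA, and for 16 of them the study's primer table names the gene. The study chose most of these genes on arrays that include those described here, so their differences are not independent evidence of a direction. PGAM5 and C5orf13 appear in the primer table alone, and how they were chosen is not given in the sources used here. None of the 16 was called, and 5 had an unadjusted p under 0.05, where 335 of all 10184 probes (3.29%) did. For these 5 genes the study's PCR primers are shown. The primers were not placed on the spotted cDNA here, so they do not check the identity of a spot. Primers are given from their 5′ end in lower case, and no base is marked.
EIF2S3 forward: tggaacaaaaattgaccccac
EIF2S3 reverse: tgtgcgtacaccaagaagtcg
LHFPL2 forward: ttactggcgttggtcctggat
LHFPL2 reverse: tgctaggagcttggttgagca
ALG5 forward: tgccacagcttcatcgacat
ALG5 reverse: ggcaaccgtttttcttcattg
APLP2 forward: agcttttgcgcttcagcatc
APLP2 reverse: agctacggtgagtcaatggca
FN1 forward: gcgattgtctgattctggctt
FN1 reverse: tctccctgacgatcccactt

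Among the 16 genes, 11 had a higher and 5 a lower mean level in SCNT Med, where 49.8% of all probes were higher and 50.2% lower. Their median difference was 0.38, where that of all 10184 probes was -0.00. Of the 5 with an unadjusted p under 0.05, 2 were higher (FN1 and APLP2) and 3 were lower (EIF2S3, LHFPL2 and ALG5). At this threshold, 158 of all probes (1.55%) were higher and 177 (1.74%) lower. As the study chose most of the 16 on arrays that include these, the 5 are not independent evidence of an excess. The difference had the same direction in both quantification sessions for 9 of the 16. The share of all probes with the same direction is not given here. Across all probes the differences of the sessions were almost unrelated (Pearson r -0.06, as a description).

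**Figure D2:**
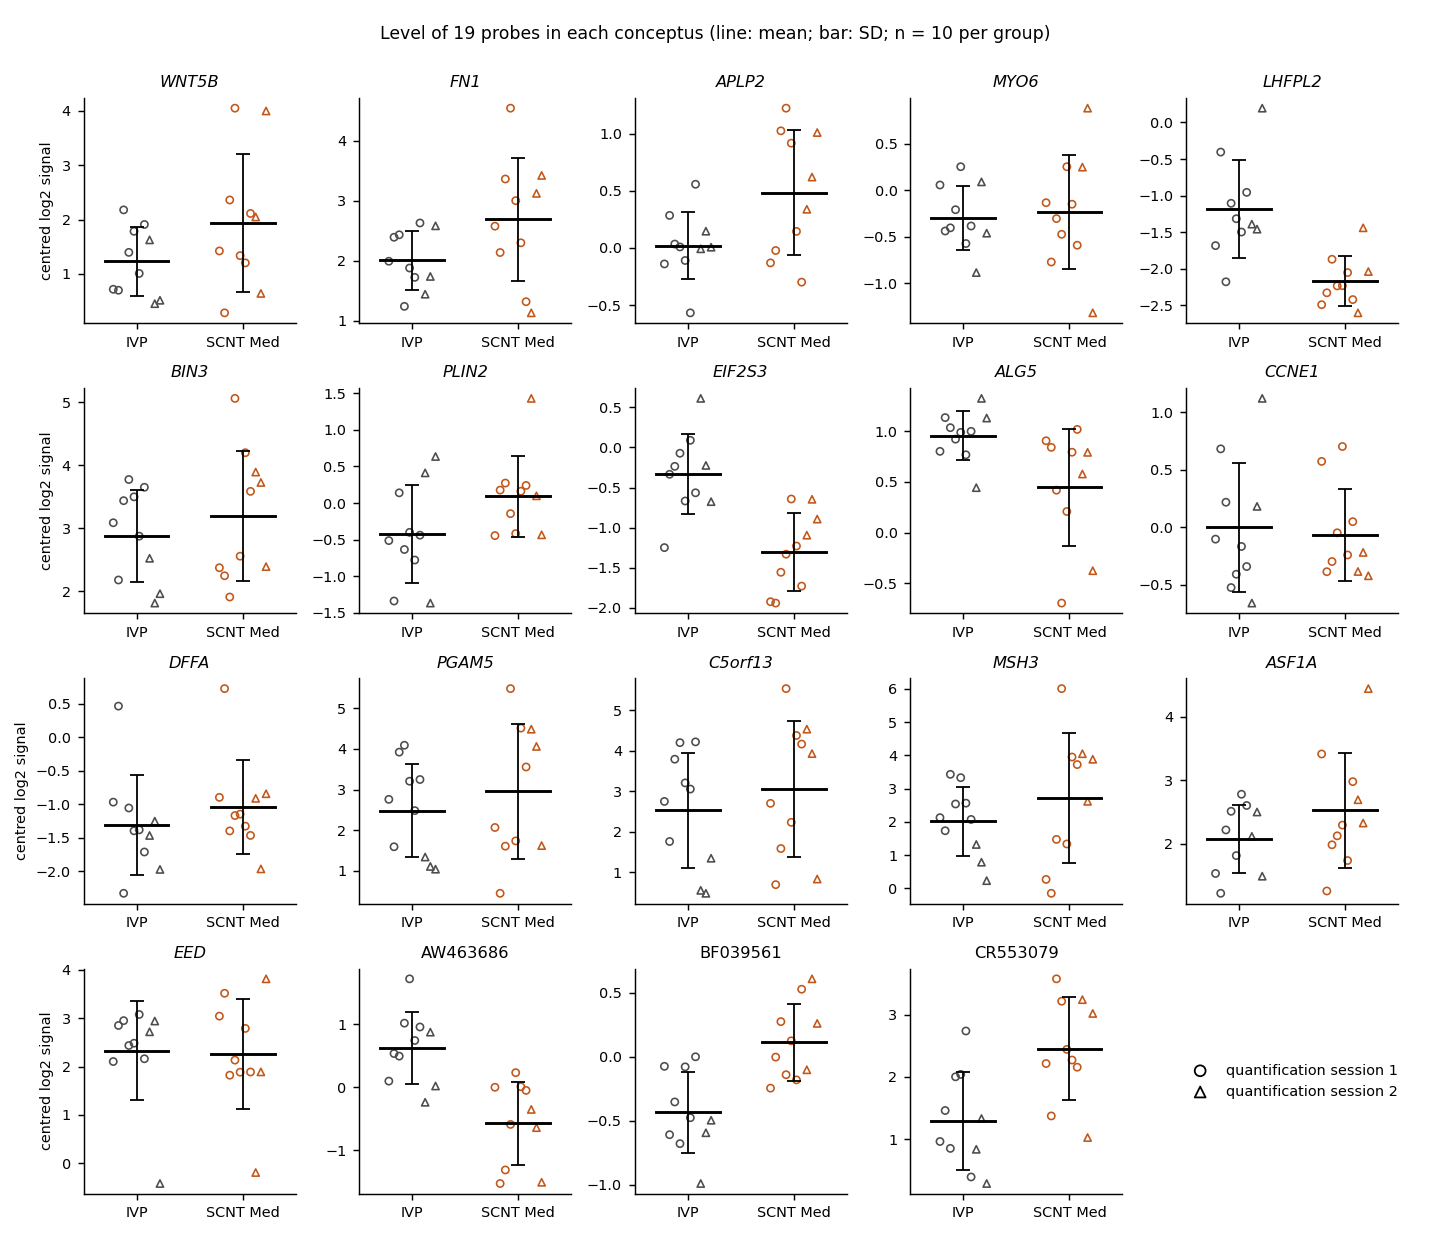
Centred log2 signal (y axis) of 19 probes in each of 10 IVP and 10 SCNT Med conceptuses, with circles for the first and triangles for the second quantification session, the mean as a line and the SD as a bar. The groups overlap for every probe shown; EIF2S3, LHFPL2 and AW463686 are shifted down in SCNT Med, and WNT5B and FN1 have a wider range there.

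The genes of translation and glycosylation both had lower mean levels in SCNT Med. EIF2S3 (BF043574) encodes a subunit of the initiation factor that brings the initiator tRNA to the ribosome, and is an X-linked gene in mammals. Its level lay between -1.94 and -0.64 in SCNT Med (median -1.28) and between -1.25 and 0.61 in IVP (median -0.28). The SCNT Med arrays were thus at the low end, with 5 of 10 below every IVP array and 7 of 10 IVP arrays above every SCNT Med array. The mean was -1.30 ± 0.49 (SD, n = 10) in SCNT Med and -0.33 ± 0.50 (SD, n = 10) in IVP, so that the signal in IVP was 1.95 times that in SCNT Med. By p it ranked 2 of the 10184 probes, with a 95% interval of the difference from -1.41 to -0.52 and an adjusted p of 0.864 from limma. All 10 SCNT Med arrays lay below the IVP mean, as was so for 22 probes (0.216%). The rank of EIF2S3 by p comes from these same arrays, so such counts add no evidence of a difference. As SCNT Med was female and IVP of both sexes, sex and mode of reproduction cannot be told apart for this gene. The difference was -1.04 in the first session and -0.78 in the second, and -0.46 with normexp background correction. That correction added an offset of 50 to each signal, which makes the log2 differences of dim spots smaller. The median signal of EIF2S3 was 48.3 in IVP and 29.4 in SCNT Med.

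ALG5 (BF040851) encodes the enzyme that charges dolichol with glucose for N-glycosylation. In SCNT Med its level ran from -0.70 to 1.02 (median 0.68), and in IVP from 0.44 to 1.32 (median 0.99). The SCNT Med mean was 0.45 ± 0.58 (SD, n = 10), against 0.95 ± 0.24 (SD, n = 10) in IVP, a difference of -0.51 (95% interval -0.92 to -0.10, unadjusted p = 0.0177 and adjusted p = 1.00 from limma). Most SCNT Med arrays lay within the IVP range. The lowest, at -0.70 in BC158 and -0.38 in BC30, lay apart from the other 8, and the SD in SCNT Med was 2.37 times that in IVP.

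LHFPL2 (BF041292), a membrane protein of the tetraspan family, was near the limit of detection. In IVP, 9 of 10 arrays showed its spot above the water control of that array, and in SCNT Med 2 of 10 did. It was brighter than each of the water, poly(dA) and Cot-1 control spots on 6 of 10 IVP and 1 of 10 SCNT Med arrays. LHFPL2 levels were -2.61 to -1.44 in SCNT Med (median -2.23) and -2.18 to 0.20 in IVP (median -1.35). In SCNT Med the mean was -2.17 ± 0.34 (SD, n = 10), lower than the -1.69 ± 0.29 (SD, n = 10) of the water spot, and it was -1.18 ± 0.67 (SD, n = 10) in IVP. All 10 SCNT Med arrays lay below the IVP mean, and the adjusted p was 0.864 (limma). The size of the LHFPL2 difference is uncertain, since the SCNT Med level was at the background of the membrane. The difference was -0.35 with normexp background correction, where the added offset shrinks the differences of dim spots. The brighter spots of the IVP group included BF190, at 0.20, and BF153, at -0.41.

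The water spot itself had a higher mean in SCNT Med. Its level was -1.69 ± 0.29 (SD, n = 10) in SCNT Med and -1.92 ± 0.27 (SD, n = 10) in IVP, a difference of 0.23 (two-sided permutation test with 100000 resamples, p = 0.0789, adjusted p = 0.237 over 12 control measures). The number of cDNA spots brighter than water was 8789 ± 682 (SD, n = 10) per array in SCNT Med and 9335 ± 490 (SD, n = 10) in IVP. A spot was brighter than water on at least 4 more IVP than SCNT Med arrays for 338 probes (3.32%), and the reverse was found for 3 (0.0295%). EIF2S3, with 10 of 10 IVP and 6 of 10 SCNT Med arrays, was 1 of the 338. LHFPL2 was among the 4 probes (0.0393%) with at least 7 more IVP arrays. The part of the water level in these counts was not tested.

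The genes of matrix and cell shape had mostly higher means in SCNT Med. FN1 (AW465534) had SCNT Med levels of 1.13 to 4.54 (median 2.79) and IVP levels of 1.24 to 2.63 (median 1.94). Thus 5 of 10 SCNT Med arrays were above every IVP array and 1, BC192, was below every IVP array. The SD of FN1 in SCNT Med was 2.11 times that in IVP. The share of all probes with such counts is not given here, for FN1 or for other genes. The FN1 mean was 2.69 ± 1.03 (SD, n = 10) in SCNT Med and 2.01 ± 0.49 (SD, n = 10) in IVP, a difference of 0.69 (95% interval 0.00 to 1.37, unadjusted p = 0.0494, adjusted p = 1.00 from limma). The FN1 difference was 0.71 in the first session and 0.64 in the second, 0.48 without BC158 and 0.86 without BC192.

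APLP2 (BF046406) is an amyloid precursor-like membrane protein. Its level ran from -0.30 to 1.22 in SCNT Med (median 0.48) and from -0.57 to 0.56 in IVP (median 0.01). Again 5 of 10 SCNT Med arrays were above every IVP array, with an SD in SCNT Med 1.88 times that in IVP. The mean was 0.48 ± 0.55 (SD, n = 10) in SCNT Med and 0.02 ± 0.29 (SD, n = 10) in IVP, a difference of 0.46 (95% interval 0.05 to 0.87, unadjusted p = 0.0283, adjusted p = 1.00 from limma). In whole EE tissue, more endoderm cells and more FN1 or APLP2 RNA per cell cannot be told apart.

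MYO6 (AW463989), the actin motor that walks toward the minus end and works in microvilli, was lowest in BC30 (-1.32) and highest in BC2U41 (0.88) among the SCNT Med arrays, while the IVP arrays lay between -0.89 and 0.25. The difference of 0.06 (95% interval -0.39 to 0.51) had no settled sign. BIN3 (CN434085), a BAR-domain protein of the actin cytoskeleton, had SCNT Med levels of 1.91 to 5.06 and IVP levels of 1.81 to 3.77. The BIN3 means differed by 0.31 (95% interval -0.44 to 1.07), with -0.08 in the first session and 1.24 in the second. The BIN3 difference was 0.11 without BC158, 0.20 without BC180 and 0.20 without BF189.

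For the trophoblast, PLIN2 (BF043749) was the gene whose probe could be named. PLIN2 ran from -0.44 to 1.43 in SCNT Med (median 0.13) and from -1.37 to 0.63 in IVP (median -0.48). Only BC192 lay above every IVP array, but 5 of 10 IVP arrays lay below every SCNT Med array. The mean was 0.09 ± 0.55 (SD, n = 10) in SCNT Med and -0.43 ± 0.67 (SD, n = 10) in IVP, a difference of 0.52 (95% interval -0.02 to 1.06, adjusted p = 1.00 from limma). With normexp background correction the PLIN2 difference was 0.29. The means of FN1, APLP2 and PLIN2 were all higher in SCNT Med, and none passed the test.

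WNT5B (CN435723), a secreted ligand of the noncanonical WNT pathway, ran from 0.28 to 4.05 in SCNT Med (median 1.73) and from 0.45 to 2.18 in IVP (median 1.20). BC158, at 4.05, and BC30, close to it, lay far above the other 18 arrays. The WNT5B difference was 0.72 (95% interval -0.12 to 1.56), with 0.53 when BC30 and the IVP array BF188 were left out and 0.39 with array weights.

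In the group of cell cycle, death and mitochondria, no gene had an unadjusted p under 0.05. CCNE1 (BF045665), the cyclin of entry into S phase, had SCNT Med levels of -0.42 to 0.70 and IVP levels of -0.66 to 1.12, a difference of -0.07 (95% interval -0.51 to 0.38). DFFA (BF045264), the inhibitor of the nuclease that cuts DNA in apoptosis, differed by 0.27 (95% interval -0.36 to 0.89), and its highest array was BC122 in SCNT Med, at 0.73. The DFFA difference rested on single arrays, with 0.07 without BC122, 0.15 without BF156 and 0.46 without BF153, and it was 0.11 with normexp background correction and 0.15 with array weights. PGAM5 (CN433942), a mitochondrial phosphatase, had SCNT Med levels of 0.45 to 5.49 and IVP levels of 1.04 to 4.09. C5orf13 (CN432421), also called NREP, had SCNT Med levels of 0.70 to 5.54 and IVP levels of 0.49 to 4.22. Both ranges span more than a difference of 3 within each group, and the intervals were wide, from -0.71 to 1.66 for PGAM5 and from -0.76 to 1.81 for C5orf13. The PGAM5 difference of 0.48 was 0.20 without BC158, 0.31 without BC180, 0.31 without BC192 and 0.76 without BC122. That of C5orf13, 0.52, was 0.25 without BC158, 0.29 without BF189, 0.30 without BF188 and 0.79 without BC122.

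Of the chromatin and DNA repair genes, MSH3 (CR552847), a mismatch repair protein, had SCNT Med levels of -0.15 to 6.01 and IVP levels of 0.23 to 3.43, a difference of 0.70 (95% interval -0.58 to 1.99). Here 5 of 10 SCNT Med arrays were above every IVP array and BC122 was below them all, with an SD in SCNT Med 1.89 times that in IVP. The MSH3 difference was 0.34 without BC158 and 0.33 with array weights. ASF1A (CR552898), a histone H3-H4 chaperone, had SCNT Med levels of 1.25 to 4.45 and IVP levels of 1.21 to 2.78, a difference of 0.45 (95% interval -0.20 to 1.09). It was 0.23 without BC30, 0.30 with array weights, 0.16 in the first session and 1.12 in the second. EED (CR552963), a core subunit of the Polycomb complex PRC2, had nearly the same mean in both groups, 2.26 ± 1.13 (SD, n = 10) in SCNT Med and 2.33 ± 1.02 (SD, n = 10) in IVP. The interval of the EED difference was -0.97 to 0.83, and its sign turned without BC192 (0.20) and without BF176 (0.01). In each group 1 array of the second session had a far lower EED level than the others, BC192 at -0.19 and BF190 at -0.41.

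**Figure D3:**
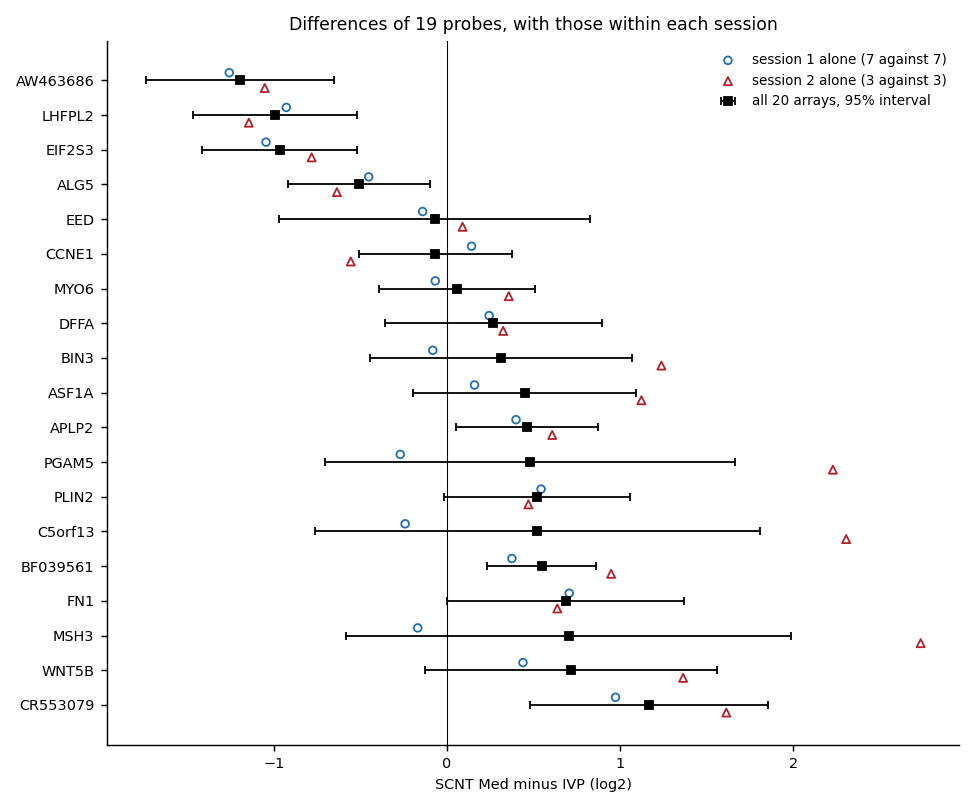
Difference SCNT Med minus IVP (x axis, log2) of 19 probes over all 20 arrays (squares, with the 95% interval from limma) and within the first (circles, 7 against 7 arrays) and the second quantification session (triangles, 3 against 3). For AW463686, LHFPL2, EIF2S3, ALG5, FN1, APLP2 and PLIN2 the session values lie within the interval; for MSH3, C5orf13, PGAM5 and BIN3 they lie on opposite sides of 0.

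The probes with the smallest p in each direction included 3 without a gene name. AW463686 ranked 1 of the 10184 probes. Its level ran from -1.53 to 0.23 in SCNT Med (median -0.47) and from -0.24 to 1.72 in IVP (median 0.64). For AW463686, 6 of 10 SCNT Med arrays lay below every IVP array and 7 of 10 IVP arrays above every SCNT Med array. The probe was chosen by its small p on these same arrays, so these counts add no evidence of a difference. The mean was -0.57 ± 0.66 (SD, n = 10) in SCNT Med and 0.62 ± 0.57 (SD, n = 10) in IVP, so that the signal in IVP was 2.29 times that in SCNT Med (95% interval of the difference -1.74 to -0.65, adjusted p = 0.864 from limma). The spot exceeded the water control on 10 of 10 IVP and 9 of 10 SCNT Med arrays, and normexp background correction gave a difference of -0.70.

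The probes with the smallest p among those higher in SCNT Med were BF039561 and CR553079. BF039561 ran from -0.25 to 0.61 in SCNT Med (median 0.06) and from -0.99 to -0.00 in IVP (median -0.49), a difference of 0.55 (95% interval 0.23 to 0.86, adjusted p = 1.00 from limma). All 10 SCNT Med arrays were above its IVP mean, as was so for 37 probes (0.363%). BF039561 and CR553079 were chosen by p on these same arrays, so such counts add no evidence of a difference. CR553079 ran from 1.02 to 3.58 in SCNT Med (median 2.36) and from 0.28 to 2.74 in IVP (median 1.14), a difference of 1.17 (95% interval 0.48 to 1.85, adjusted p = 1.00 from limma). In SCNT Med, 9 of 10 arrays were above the IVP mean of CR553079. Normexp background correction gave 0.35 for BF039561.

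The other SCNT groups, from donor lines 5538 (SCNT High) and 0029 (SCNT Low), give the levels of the same probes in clones of other donors. Quantification session 3 held 4 SCNT High and 2 SCNT Low arrays and neither SCNT Med nor IVP arrays, and the software marked 2067 to 2847 cDNA spots as poor on each of these 6. EIF2S3 was at -0.98 ± 0.43 (SD, n = 10) in SCNT High, and in SCNT Low its mean was -0.77 ± 0.74 (SD, n = 10). SCNT Med minus SCNT High gave -0.32 with a standard error of 0.20 (limma, adjusted p = 0.789), and SCNT Med minus SCNT Low gave -0.53 with a standard error of 0.27 (limma, adjusted p = 0.997). With the session as a block these differences of EIF2S3 were -0.18 and -0.22. LHFPL2 had a mean of -2.18 ± 0.35 (SD, n = 10) in SCNT Low, where its spot exceeded water on 2 of 10 arrays, and of -1.82 ± 0.40 (SD, n = 10) in SCNT High, where it did on 5 of 10. For LHFPL2, SCNT Med minus SCNT Low gave 0.01 with a standard error of 0.17 (limma, adjusted p = 1.00; the sign turned with array weights), and SCNT Med minus SCNT High -0.35 with a standard error of 0.18 (limma, adjusted p = 0.742). The level of LHFPL2 was thus near that of the water spot in SCNT Low and SCNT High as well as in SCNT Med.

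AW463686 had a mean in SCNT High of 0.62 ± 0.72 (SD, n = 10), like that of IVP, and in SCNT Low one of 0.17 ± 0.90 (SD, n = 10). The difference of SCNT Med from SCNT High was -1.19 with a standard error of 0.29 (limma, adjusted p = 0.443), and from SCNT Low it was -0.74 with a standard error of 0.33 (limma, adjusted p = 0.997). The mean of CR553079 was 2.31 ± 1.29 (SD, n = 10) in SCNT Low, near that of SCNT Med, and 1.20 ± 1.19 (SD, n = 10) in SCNT High, near that of IVP. For CR553079, SCNT Med minus SCNT Low gave 0.14 with a standard error of 0.44 (limma, adjusted p = 0.997), and its sign turned with normexp background correction. SCNT Med minus SCNT High gave 1.25 with a standard error of 0.41 (limma, adjusted p = 0.654), and 0.49 with the session as a block. BF039561 was at -0.09 ± 0.52 (SD, n = 10) in SCNT High, and its SCNT Low mean was 0.07 ± 0.82 (SD, n = 10). Against SCNT High it differed by 0.20 with a standard error of 0.19 (limma, adjusted p = 0.865), and by 0.12 with the session as a block. Against SCNT Low the difference of BF039561 was 0.04 with a standard error of 0.27 (limma, adjusted p = 0.997), and its sign turned with array weights and with normexp background correction. For FN1 the SCNT High mean was 1.45 ± 1.11 (SD, n = 10), and that of SCNT Low was 1.38 ± 0.39 (SD, n = 10). SCNT Med minus SCNT High gave 1.25 for FN1, with a standard error of 0.43 (limma, adjusted p = 0.659), and SCNT Med minus SCNT Low gave 1.31 with a standard error of 0.32 (limma, adjusted p = 0.901).

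None of the 19 named probes was called between SCNT Med and either group, with or without the session as a block, where over all probes 1 was called against SCNT High (0.00982%) and 0 against SCNT Low (0%). The call against SCNT High, BF041564, was named after its value was seen. It had a mean of 2.33 ± 0.63 (SD, n = 10) in SCNT Med, 0.84 ± 0.43 in SCNT High, 1.55 ± 0.68 in IVP and 1.72 ± 0.51 in SCNT Low. The BF041564 difference of SCNT Med from SCNT High was 1.49 with a standard error of 0.23 (limma, adjusted p = 0.0132). It held with normexp background correction (1.19, adjusted p = 0.0560) and array weights (1.58, adjusted p = 0.000828). With the session as a block the difference was 1.28 with a standard error of 0.27, and the call was lost (adjusted p = 0.804 from limma). Against SCNT Low, array weights gave 1 call, AW463538, likewise named after its value was seen. Its difference was 1.47 with array weights (limma, adjusted p = 0.0797) and 1.39 without them (adjusted p = 0.833).

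The controls gave the following values. Of the reference genes, GAPDH (mean of 10 spots) was at 2.58 ± 0.59 (SD, n = 10) in SCNT Med and 2.94 ± 0.30 (SD, n = 10) in IVP (two-sided permutation test, p = 0.103, adjusted p = 0.248). Actin (mean of 10 spots) was at 2.84 ± 0.33 (SD, n = 10) in SCNT Med and 2.58 ± 0.18 (SD, n = 10) in IVP (two-sided permutation test, p = 0.0473, adjusted p = 0.237). The differences of the reference genes had opposite signs, -0.36 for GAPDH and 0.26 for actin. The spot of POU5F1, a factor of the epiblast that bovine trophoblast also expresses for a time, was at -0.15 ± 0.37 (SD, n = 10) in SCNT Med and -0.23 ± 0.67 (SD, n = 10) in IVP. It was brighter than water on 10 of 10 SCNT Med and 9 of 10 IVP arrays, and brighter than each of the soybean control spots on 7 of 10 in either group. The only named markers of a cell type were FN1, APLP2, PLIN2 and POU5F1, so the makeup of the tissue could not be checked further.

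Over all probes, IVP conceptuses were slightly more like each other than like those of SCNT Med. SCNT Med conceptuses were slightly less like each other than like those of IVP. The median Pearson r between arrays, across probes that are not independent, was 0.930 within IVP, 0.903 within SCNT Med and 0.917 between them. The array most like a given array came from the other group for 9 of 10 SCNT Med arrays and for 3 of 10 IVP arrays. Between the mean profiles of SCNT Med and IVP, the root mean square difference was 0.22 (one-sided permutation test with 100000 resamples, p = 0.713).

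A pair of arrays stood apart, BC30 in SCNT Med and BF188 in IVP. They had the highest median signal of their groups, 162 and 135 brightness units, where the other 18 arrays lay between 22.9 and 82.0. BC30 and BF188 correlated with each other at 0.935, but BC30 correlated with the other SCNT Med arrays at only 0.774 to 0.868 and BF188 with the other IVP arrays at 0.839 to 0.900. Both were quantified in the second session. Without them, 0 probes were called and 399 had an unadjusted p under 0.05. Also without them, the differences were -0.91 for EIF2S3, -1.19 for AW463686, 0.54 for FN1 and 0.40 for APLP2.

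**Figure D4:**
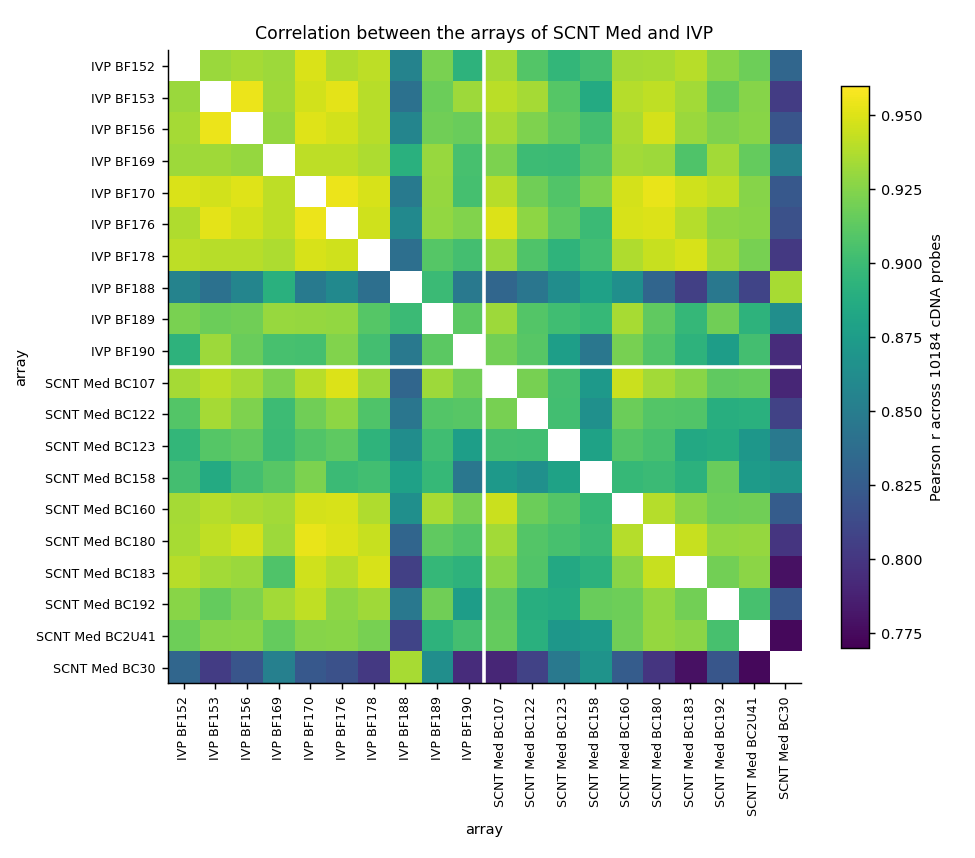
Pearson r across 10184 cDNA probes between each pair of the 20 arrays (both axes; colour scale; white lines divide IVP from SCNT Med). The arrays BC30 and BF188 form dark rows but correlate with each other at 0.935. Without them the median r is 0.933 within IVP, 0.909 within SCNT Med and 0.923 between the groups.

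The SCNT Med conceptuses spread more than those of IVP at most probes. The SD was larger in SCNT Med for 6881 probes (67.6%), with a median ratio of SCNT Med over IVP of 1.19, and it was at least 2 times that of IVP for 824 (8.09%). The reverse, an SD in IVP at least 2 times that of SCNT Med, was found for 192 (1.89%). Among the 16 genes, the SD was larger in SCNT Med for 11, with a median ratio of 1.44, and at least 2 times as large for WNT5B, FN1 and ALG5. Without BC30 and BF188 the median ratio over all probes was 1.17. Averaged per array over all probes, the deviation from the rest of the group exceeded that of IVP by 0.09 on the log2 scale (two-sided permutation test with 100000 resamples, p = 0.237). That value rests on single arrays. It was 0.14 without BF188 (two-sided permutation test, p = 0.00879), 0.03 without BC30 (permutation test, p = 0.576) and 0.08 without both (permutation test, p = 0.0481).

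Single conceptuses carried much of the range within SCNT Med. Of the 16 genes, BC158 had the highest SCNT Med level for 7, namely WNT5B, FN1, APLP2, BIN3, PGAM5, C5orf13 and MSH3, and the lowest for ALG5. BC122 had the lowest SCNT Med level for 6, namely WNT5B, EIF2S3, PGAM5, C5orf13, MSH3 and ASF1A. In IVP the most such extremes were 4 lowest levels in BF189 and 3 highest levels each in BF178 and BF190. PGAM5, C5orf13, MSH3 and BIN3 thus had their highest levels in one and the same clone.

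By the dates in the files, the arrays were quantified in separate sessions, with 7 SCNT Med and 7 IVP arrays in session 1 and 3 of each in session 2. Within session 1, 0 probes were called and 417 had an unadjusted p under 0.05, and within session 2 these were 0 and 230. Across probes, the differences of the sessions were almost unrelated (Pearson r -0.06, as a description). In session 2, all 3 IVP arrays had low levels of C5orf13, between 0.49 and 1.35, whereas BC192 was at 4.54, BC2U41 at 3.93 and BC30 at 0.84. The difference of C5orf13 was -0.24 in session 1 and 2.31 in session 2, that of PGAM5 -0.27 and 2.23, and that of MSH3 -0.17 and 2.74. EIF2S3, LHFPL2, ALG5, AW463686, FN1, APLP2, PLIN2, WNT5B, DFFA, ASF1A, BF039561 and CR553079 had the same direction in both. AW463686, EIF2S3, BF039561 and CR553079 have the smallest p over these same arrays, so their agreement between sessions is not independent evidence. With the session as a block, 0 probes were called and the adjusted p of EIF2S3 and of AW463686 was 0.457 (limma).

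**Figure D5:**
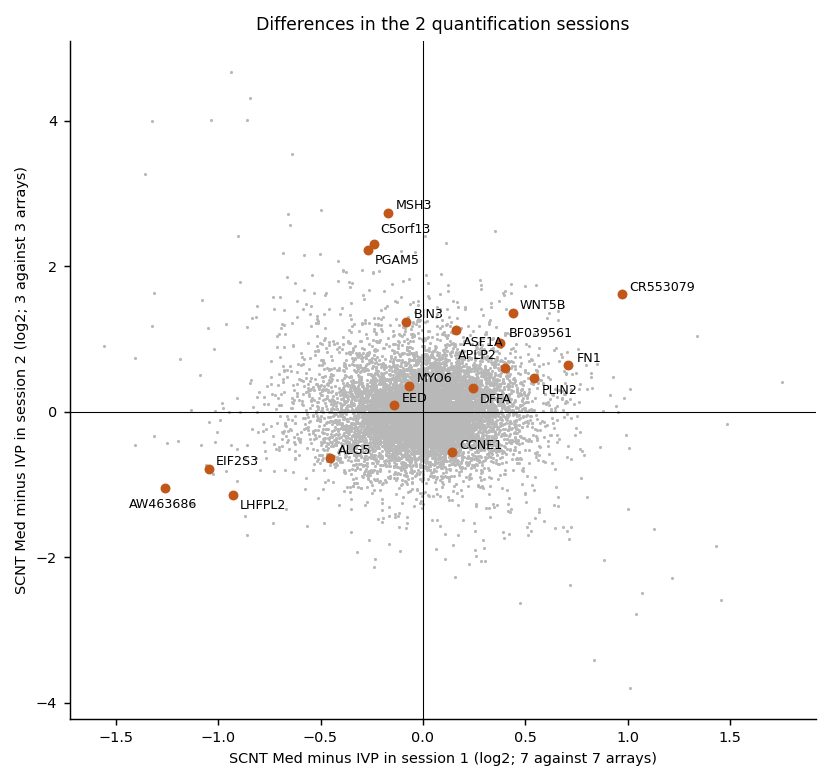
Each grey point is 1 of 10184 cDNA probes, with its difference SCNT Med minus IVP (log2) in session 1 (x axis, 7 against 7 arrays) and in session 2 (y axis, 3 against 3 arrays; the axes have different scales); the 19 named probes are in colour. EIF2S3, LHFPL2 and AW463686 lie low on both axes and CR553079 high on both, while MSH3, C5orf13 and PGAM5 lie above 2 in session 2 and below 0 in session 1.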

How the data were processed

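EE tissues were profiled on nylon cDNA arrays with radioactively labelled amplified RNA. The authors deposited the mean spot intensity and local background intensity from the quantification software, neither background-subtracted nor normalized. A shape regularity score, a fraction, and marks for empty spots were deposited beside it and used here only to look at single spots. The deposited series table holds log2 values processed by the authors. Its differences between arrays match those of the log2 intensities (Pearson r 1.00, slope 1.00, 10184 probes), so scale and direction are known. Its column medians lie between -0.157 and 0.0598, and the set of arrays on which each probe was centred stays unknown. It served as an alternative.

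Log2 intensities were centred here by subtracting the array mean of the cDNA probes, leaving out 30 control spots and 154 unnamed spots. The 20 arrays were fitted with lmFit and eBayes (limma 3.58.1, R 4.3.3), and an adjusted p under 0.10 counted as a call. The methods name SMVar, which was not run; a structural variance model written after its description was an alternative. Groups came from the labels. Permutation tests used scipy 1.17.1 and numpy 2.4.6 in Python 3.11.15, and figures matplotlib 3.10.9. The fits were tested on simulated data.

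Named genes were the 16 that the primer table pairs with accessions, the reference genes GAPDH and actin, and the 2 probes higher and 2 lower with the smallest p, brighter than water on at least 5 of 10 arrays of a group. RPL19, RPS18 and the planned longer lists could not be tied to probes. The members and lists were chosen with earlier results of these data known. Per array, the median ratio of signal to local background was 4.85 to 8.99, and the number of arrays limits the precision.

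Alternatives were normexp background correction (offset 50), quantile normalization, centring on the median, the authors' values, leaving out the dimmest 25% of probes, all 40 arrays in one model, the structural variance model, array weights, the session as a block, each session alone, other thresholds and leaving out each array. Leaving out BC30 and BF188 was chosen after seeing the data.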

Additional observations from a re-analysis of the deposited data

Results flagged for a closer look

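In groups of 10 arrays, the highest or lowest array was set against the others by Dixon's test, and 13 of 64 tested groups had an array whose gap to the next, as a share of the range, was over the 95% critical value. Chance gives such a gap in about 1 in 20 groups. The brightest arrays account for several: the median signal was 162 on BC30 (next 82.0) in SCNT Med and 135 on BF188 (next 77.6) in IVP, and the spread from the rest of the group was 1.06 on BC30 and 0.90 on BF188. BC30 also had the highest median signal over background, 8.99, and the lowest poly(dA) spot, -2.18. PLIN2 was at 1.43 on BC192, with the next SCNT Med array at 0.27. DFFA was at 0.73 on BC122 in SCNT Med and at 0.47 on BF153 in IVP, with the next arrays at -0.84 and -0.97. EED was at -0.19 on BC192 in SCNT Med and at -0.41 on BF190 in IVP, with the next at 1.82 and 2.10. The POU5F1 spot was at -1.93 on BF152 in IVP (next -0.59), and the Cot-1 spot at -2.18 on BF156 in IVP (next -1.73).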

How the results depend on the processing

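The count of called probes was 0 under the 14 alternatives and the 20 fits that left out 1 array, with 198 (normexp) to 487 (without BC30) probes under 0.05 before adjustment. The adjusted p went as low as 0.198, for LHFPL2 in the model of all 40 arrays (limma). The looser threshold of 0.20 was applied to the main fit alone, and LHFPL2 would have passed it in that model. At the threshold of 0.10 the named probes gave 0 calls throughout, also against SCNT High and SCNT Low. The distance between the group means ranged from 0.161 to 0.237 over the alternatives. The difference in spread was past 0.05 by permutation without BF188 (0.136) and without both BC30 and BF188 (0.0797), and ranged from 0.0333 to 0.136 when 1 array was left out. Some differences from IVP reversed, the largest of them MSH3 (0.70 over both sessions). Within session 1 they were -0.0676 for MYO6, -0.0817 for BIN3, 0.14 for CCNE1, -0.27 for PGAM5, -0.24 for C5orf13 and -0.17 for MSH3. Within session 2 EED was at 0.0902, and array weights gave 0.0402 for CCNE1. When 1 array was left out, MYO6 ranged from -0.0646 to 0.18, CCNE1 from -0.15 to 0.0571 and EED from -0.38 to 0.20. Against SCNT Low, BF039561 reversed to -0.0238 with array weights and -0.00119 with normexp, CR553079 to -0.0191 with normexp and LHFPL2 to -0.0181 with array weights. The cause of these reversals was not tested. Array weights raised the calls of SCNT Med against SCNT High from 1 to 12 and against SCNT Low from 0 to 1. EIF2S3 ranged from -1.07 to -0.46 and AW463686 from -1.29 to -0.70 over all settings, with the smallest differences under normexp. The normexp offset of 50 by itself makes the differences of dim spots smaller. How far removing background alone changes them was not tested. LHFPL2 was left out with the dimmest probes. No paired analysis was possible because the labels give no replicate numbers that the groups share. Spots near the water level, such as LHFPL2, have no reliable size.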
